A study of Homo sapiens with 12 samples.

Results

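Levels of 9 imprinted genes were compared in MIO-M1 cells, a human Müller glia line, after knockdown of the stress kinases p38-alpha or JNK1 and JNK2. The 9 genes, PEG10, SGCE, PEG3, IGF2, MEST, CDKN1C, PLAGL1, DLK1 and NNAT, were taken by gene symbol from the 17992 genes listed in either of 2 tables of read counts. PEG10 was selected on its measured fold changes, which ran in opposite directions in the 2 knockdowns, so its values are given as a description, without a test. The other 8 were listed with earlier results of these data known.

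Messenger RNA was sequenced 3 days after siRNA treatment, in 12 libraries of 4 groups with 3 libraries each. The siMapk14 libraries (siRNA against MAPK14, the gene of p38-alpha) were set against their own siControl, and the siMapk8+9 libraries (siRNAs against MAPK8 and MAPK9, the genes of JNK1 and JNK2) against another siControl. All cells carry the label WT, and each experiment has a batch label of its own, so the batch and the control set cannot be told apart. Nothing in the labels ties the replicates to separate cultures; a p-value then covers only library-to-library spread, which may be technical.

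An imprinted gene is read mostly from 1 parental copy, as set by marks such as DNA methylation laid down in the egg or the sperm. Many imprinted genes act on growth in the embryo and the placenta: the paternally expressed IGF2 promotes it, and the maternally expressed CDKN1C restrains it. PEG10 derives from a retrotransposon and still encodes a Gag-like and a Gag-Pol-like protein, made through a ribosomal frameshift, and is needed for placental development in mice. These libraries do not separate the parental copies, so levels here are totals over both.

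Of these genes other than PEG10, which was not tested, only SGCE, MEST and PLAGL1 were tested in both knockdowns. PLAGL1 alone of them was called in both, where 18.1% of all genes were called lower in both. In the JNK knockdown the PLAGL1 call (edgeR adjusted p = 0.0362) was lost once transcript length was corrected for. It was also lost on leaving out some single libraries. RefSeq promoter windows (GRCh38.p14) were at hand for PLAGL1 and MEST, 5 windows each. For PEG10, SGCE, PEG3, IGF2, CDKN1C, DLK1 and NNAT none was at hand, and they are named only. PLAGL1 encodes a zinc-finger transcription factor that halts cell growth. Its start shared with HYMAI, the one that is imprinted, lies in a CpG island. The other start shown was picked because its window holds the letters TGACTCA, and it lies in a CpG-poor stretch. Both windows are on the minus strand of chromosome 6. The PLAGL1 windows not shown had 31, 3 and 3 CpG sites and no TGACTCA on either strand, so the pair does not stand for all starts. In the first, chr6:144008210-144008509, capitals mark the 39 CpG sites, against a median of 14 over all 35116 windows. In the other, chr6:143961363-143961662 with 2 CpG sites, capitals mark TGACTCA, the letters that AP-1 (the JUN and FOS factors) binds.
PLAGL1 start shared with HYMAI: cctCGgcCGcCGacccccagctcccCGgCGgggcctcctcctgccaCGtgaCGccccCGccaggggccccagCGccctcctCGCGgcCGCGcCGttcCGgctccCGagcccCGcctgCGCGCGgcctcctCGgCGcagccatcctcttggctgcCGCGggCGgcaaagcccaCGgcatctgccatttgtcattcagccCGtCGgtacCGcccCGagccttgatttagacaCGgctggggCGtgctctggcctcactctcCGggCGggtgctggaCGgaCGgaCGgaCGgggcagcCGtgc
PLAGL1 other start: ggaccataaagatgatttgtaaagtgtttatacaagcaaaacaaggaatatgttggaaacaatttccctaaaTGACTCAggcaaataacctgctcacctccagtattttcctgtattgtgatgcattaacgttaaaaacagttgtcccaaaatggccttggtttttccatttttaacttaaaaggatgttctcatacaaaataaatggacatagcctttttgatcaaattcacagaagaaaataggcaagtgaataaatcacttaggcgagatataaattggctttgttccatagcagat
TGACTCA, searched on both strands, was found in 1 of the 10 windows of PLAGL1 and MEST and in 4.95% of all windows; TGACGTCA, the letters of a CREB site, was found in 0 of the 10 and in 1.85% of all. These matches describe the letters alone, and the gene-level counts do not tell which start was used.

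Depth and composition differed between groups. Total counts were 14516408 to 19463837 in siMapk14, 31040065 to 31362589 in its siControl, 9246299 to 20136457 in siMapk8+9 and 31296949 to 31510582 in its siControl. The 13 mitochondrially encoded genes held 32.1 to 45.0% of counts in siMapk14 and 1.56 to 1.69% in its siControl, and 8.93 to 36.9% in siMapk8+9 against 1.92 to 2.03% in its siControl. Longer transcripts were lower in both knockdowns: in 5 equal bins of length, the longest bin had a median log2 fold change of -0.57 in siMapk14 and -0.78 in siMapk8+9, and the shortest bin 0.72 and 0.95. Replicate 2 of siMapk8+9 stood apart, with the lowest mitochondrial share of its group and a summed level of 12 epithelial markers of 1321 CPM (count share scaled by TMM, so that libraries of different depth compare), against 69.6 to 101 CPM in the other 11 libraries. All 12 markers had counts in it, as they did in replicate 1 of its siControl, so the levels set it apart. KRT14 led at 345 CPM, and was at most 0.632 CPM elsewhere. CDKN2A and CDKN2B, listed in this experiment alone, had 36 and 140 counts in that library and 0 in the other 5. The targeted genes were lower in their own knockdowns: MAPK14 averaged 33.7 ± 3.53 CPM in siMapk14 and 78.8 ± 1.98 CPM in its siControl, MAPK8 9.81 ± 1.18 CPM in siMapk8+9 and 27.5 ± 0.164 CPM in its siControl, and MAPK9 22.5 ± 4.69 CPM in siMapk8+9 and 63.6 ± 1.03 CPM in its siControl (SD, n = 3 each). MAPK14 was also lower in siMapk8+9, at 54.8 ± 12.9 CPM against 84.0 ± 1.94 CPM in its siControl, without overlap. In siMapk14 MAPK8 was at 28.2 ± 1.64 CPM against 29.1 ± 1.83 CPM in its siControl. MAPK9 was there at 63.8 ± 6.12 CPM against 68.3 ± 0.619 CPM. Of the Müller glia markers, VIM and GLUL were present in all libraries, while RLBP1 had 0 counts in the 6 siControl libraries.

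PEG10 (chr7:94656325-94669695, GRCh38.p14) had 146.8, 91.0 and 93.7 CPM in the siMapk14 libraries, against 78.8, 67.4 and 64.5 CPM in their siControl, from 890 to 1780 and 2563 to 3138 counts. Every siMapk14 library was above every siControl library on this scale, with replicate 1 well above the other 2. In siMapk8+9 PEG10 had 50.9, 42.4 and 59.3 CPM, against 194.3, 186.6 and 188.9 CPM in its siControl, from 357 to 923 and 7585 to 7888 counts. These groups did not overlap either, and the keratin-bearing replicate 2 lay close to the other 2 libraries of its group.

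The fitted log2 fold change of PEG10 was 0.68 ± 0.17 (SE) in siMapk14, or 1.61-fold, and -1.88 ± 0.14 in siMapk8+9, which left 27.1% of the siControl level. Between them the 2 effects differed by 2.56 ± 0.25 on the log2 scale. Scaled by total counts alone the siMapk14 value turned to -0.09, on a scale where the median of all genes stood at -0.79, and the siMapk8+9 value became -2.59, beside a median of -0.71. Without siMapk14 replicate 1 the first value was 0.42, and without siMapk8+9 replicate 2 the other was -1.76. PEG10 has an effective transcript length of 6.28 kb, in the longest bin. With each library's trend of level on transcript length removed the values were 1.21 and -1.13, and their difference 2.35. The rule that chose PEG10 used these contrasts. For background, 81 of 12869 genes tested in both, or 0.629%, were called higher in siMapk14 and lower in siMapk8+9. Since PEG10 was chosen for this pattern, that share does not measure how unusual PEG10 is.

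**Figure D1:**
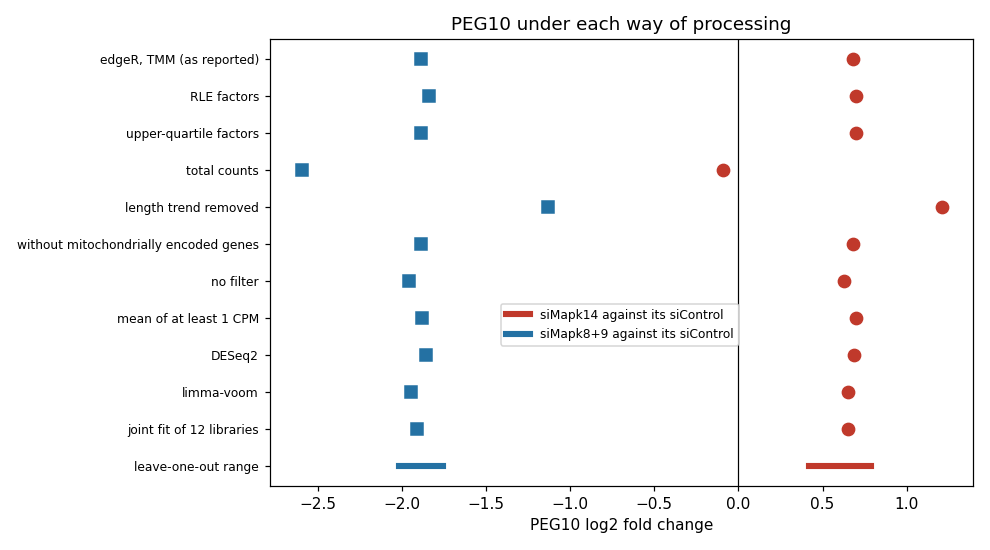
PEG10 log2 fold change (x axis) under each way of processing (y axis), siMapk14 against its siControl as red circles and siMapk8+9 against its siControl as blue squares; the bars in the bottom row give the range over leaving out each library in turn. The siMapk14 points lie between 0.63 and 0.70 except with total counts (-0.09) and with the length trend removed (1.21), and the siMapk8+9 value is below 0 in every row.

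PEG10 averaged 110.5 ± 31.5 CPM in siMapk14, 50.9 ± 8.43 CPM in siMapk8+9, 70.3 ± 7.54 CPM in the siControl for siMapk14 and 189.9 ± 3.92 CPM in the siControl for siMapk8+9 (SD, n = 3 each). From high to low the order was the siControl for siMapk8+9, siMapk14, the siControl for siMapk14 and siMapk8+9, and no pair of neighbours in that order overlapped. By total counts siMapk14, at 83.8 CPM and with libraries from 61.3 to 108.9 CPM, overlapped its siControl, at 89.6 CPM and from 82.6 to 100.1 CPM, and stood below it by the mean. The siControl sets differed from each other by 1.43 on the log2 scale, 2.70-fold and more than the siMapk14 change. Of 13648 genes, 2.28% differed between the siControl sets by as much, and the median absolute difference was 0.28. Since each siControl set was run in 1 batch, this gap was not tested, and whether it follows the batch or the control siRNA cannot be told apart. In the authors' deposited FPKM the group means were 13.3 in siMapk14, 6.47 in siMapk8+9, 14.3 in the siControl for siMapk14 and 39.3 in the siControl for siMapk8+9.

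**Figure D2:**
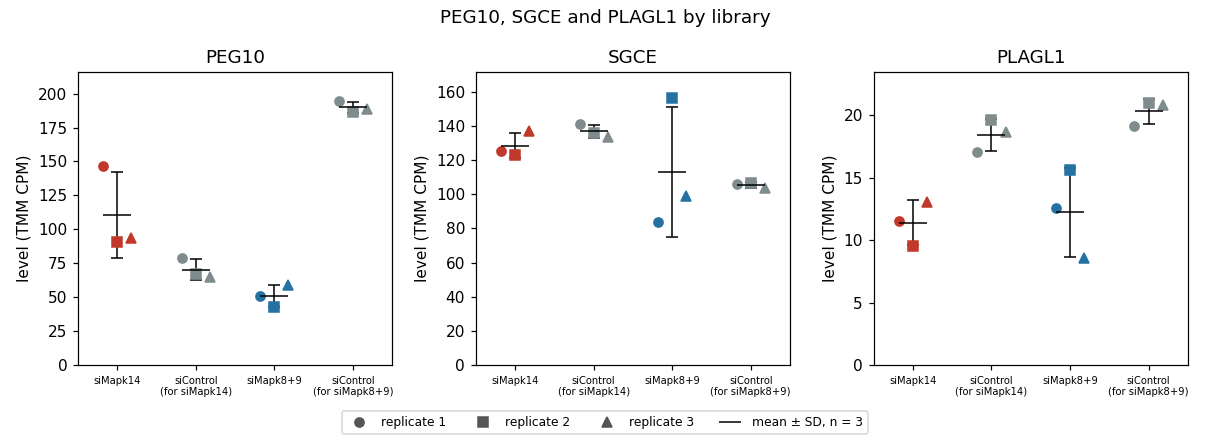
Level (TMM-scaled CPM, y axis) of PEG10, SGCE and PLAGL1 in each library of the 4 groups (x axis); symbols mark replicates, and the line and bar give mean ± SD. PEG10 is above its siControl in siMapk14 and below it in siMapk8+9 on this scale (in siMapk14 not by total counts), SGCE overlaps its siControl in siMapk14 (called lower there by total counts, at -0.83, and corrected for length, at -0.39) and in siMapk8+9 has 1 library above its siControl and 2 below, and PLAGL1 is below it in all 6 knockdown libraries.

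SGCE (chr7:94584980-94656133) encodes epsilon-sarcoglycan, a membrane protein whose loss from the paternal copy causes myoclonus dystonia. It starts head to head with PEG10, with 191 bases between the annotated genes. SGCE had 125.5, 122.8 and 137.0 CPM in siMapk14, against 140.9, 136.1 and 133.3 CPM in its siControl, and the groups overlapped. In siMapk8+9 it had 84.0, 156.3 and 99.1 CPM, against 106.1, 106.9 and 103.5 CPM in its siControl. There replicate 2, the library with keratin transcripts, lay above every siControl library and the other 2 below, and the part of those transcripts in the value was not tested. Its log2 fold change was -0.06 ± 0.06 in siMapk14 (edgeR adjusted p = 0.445) and 0.13 ± 0.22 in siMapk8+9 (edgeR adjusted p = 0.657; -0.18, adjusted p = 0.0635, without replicate 2). With the length trend removed SGCE was -0.39 in siMapk14 (edgeR adjusted p = 0.00121), and with total counts -0.83 (edgeR adjusted p = 0.000979). SGCE and PEG10 differed in level as well as in change: per kilobase of effective transcript length SGCE stood at 82.1, 72.3, 87.4 and 67.4 CPM in siMapk14, siMapk8+9, the siControl for siMapk14 and the siControl for siMapk8+9, and PEG10 at 17.6, 8.10, 11.2 and 30.3 CPM in the same groups. Between the siControl sets SGCE was higher for siMapk14 and PEG10 higher for siMapk8+9. Part of the span of SGCE overlaps CASD1. Shared exons were not checked, and strand is not given in the sources used here, so some reads may not be assignable.

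PLAGL1 (chr6:143940300-144064599) fell in both knockdowns. It had 11.5, 9.51 and 13.1 CPM in siMapk14, against 17.0, 19.6 and 18.7 CPM in its siControl, and 12.5, 15.6 and 8.54 CPM in siMapk8+9, against 19.2, 20.96 and 20.8 CPM in its siControl. No knockdown library reached a siControl library of its own experiment. Of all genes, 18.1% were called lower in both knockdowns. The log2 fold change was -0.65 ± 0.14 in siMapk14 (edgeR adjusted p = 0.00365), lower in 3 of 3 libraries. In siMapk8+9 it was -0.69 ± 0.22 (edgeR adjusted p = 0.0362), lower in 3 of 3 libraries, a call that was lost with the length trend removed (-0.54, edgeR adjusted p = 0.0629). Leaving out siMapk8+9 replicate 1, or siControl replicate 1, 2 or 3, also lost it (edgeR adjusted p = 0.0796, 0.0833, 0.107 and 0.106, at log2 fold changes of -0.69, -0.74, -0.68 and -0.68), while without replicate 2 it was -0.90 (edgeR adjusted p = 0.00207). The 2 effects differed by 0.01 ± 0.27 (edgeR adjusted p = 0.985). HYMAI, a noncoding RNA, lies inside the span of PLAGL1. Whether they share exons was not checked, so some of their reads may not be told apart.

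Among the members other than PEG10, PLAGL1 was the only one of 3 tested that was called in siMapk14, where 59.9% of all 13183 genes tested were called (29.4% higher, 30.5% lower). In siMapk8+9, 3 of 5 were called, CDKN1C and IGF2 higher and PLAGL1 lower, against 52.9% of all 13124 genes (26.8% higher, 26.1% lower). CDKN1C and IGF2 passed the filter on low counts only through the knockdown group, where they are high, so nothing is read from that count. Without siControl replicate 1 or 3 the siMapk8+9 count was 1; in siMapk14 it was 2 without siMapk14 replicate 2. Libraries did not overlap for PLAGL1 (lower) in siMapk14, where 68.9% of all genes did not (31.6% higher, 37.3% lower), and for PLAGL1 (lower), CDKN1C and IGF2 (higher) in siMapk8+9, where 68% did not (30.9% higher, 37% lower). Once transcript length was corrected for, the members called were SGCE and PLAGL1, both lower, in siMapk14 (46.6% of all genes, 25.1% higher and 21.6% lower) and CDKN1C, higher, in siMapk8+9 (38.4% of all genes, 22.5% higher and 16% lower); IGF2 has no effective length and was not tested in that way. For the difference between the effects, 0 of 5 members passed edgeR's quasi-likelihood test; CDKN1C had an unadjusted p under 0.05, and 1 member, also CDKN1C, passed in DESeq2 and 0 in limma-voom, against 15.9% of all genes in edgeR.

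**Figure D3:**
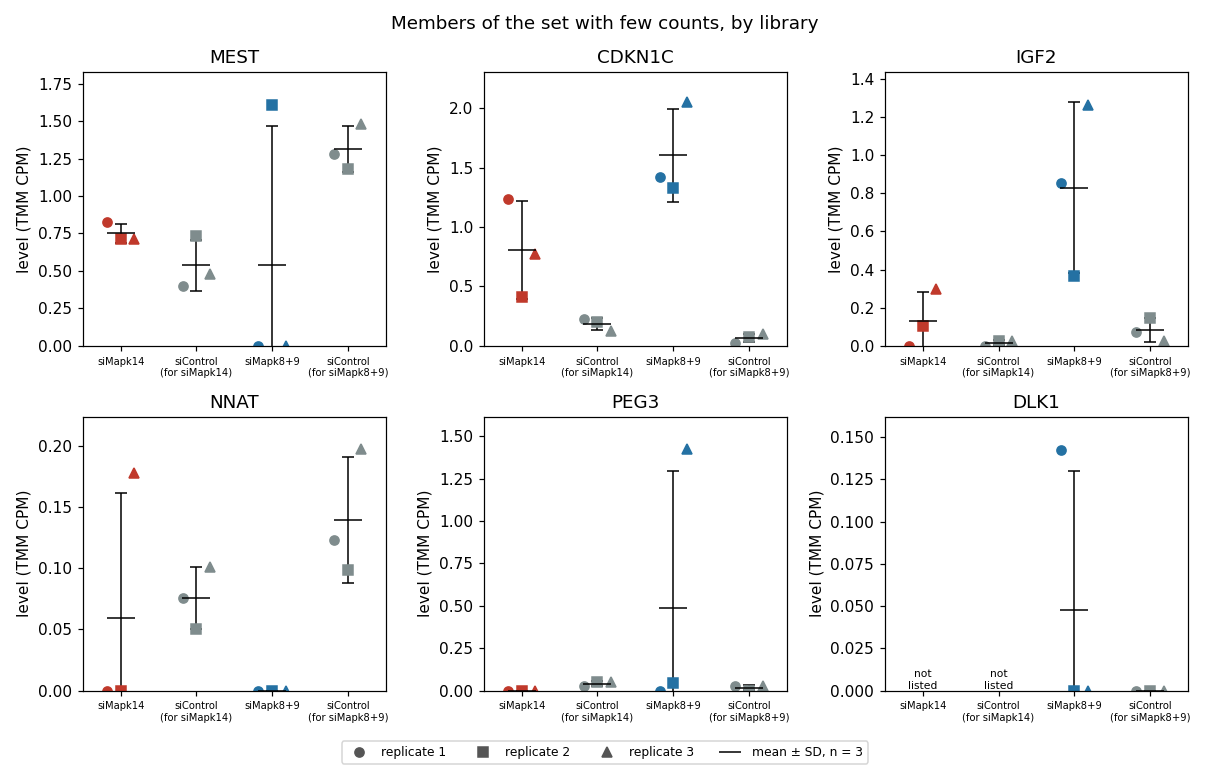
Level (TMM-scaled CPM, y axis) of the 6 members with few counts, in each library of the 4 groups (x axis); symbols mark replicates, the line and bar give mean ± SD, and each panel has its own scale. CDKN1C is higher in all 3 siMapk8+9 libraries than in their siControl, and MEST has counts in siMapk8+9 in replicate 2 alone.

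MEST (chr7:130486175-130506465) encodes a hydrolase-like protein of the endoplasmic reticulum, expressed in mesoderm and in growing fat tissue. In siMapk8+9 it had 0, 35 and 0 counts, against 52, 48 and 60 counts in its siControl. The 35 counts all came from replicate 2, the library with keratin transcripts. The part of those transcripts in the 35 counts was not tested. With all libraries the log2 fold change was -0.85 ± 0.98 (edgeR adjusted p = 0.490). Without replicate 2 MEST was at 0 in both remaining libraries, where its siControl level of 1.31 CPM would give 9.21 and 8.31 counts; against a floor of 3 counts over both libraries it was at least 5.84-fold lower. MEST passes the filter there only through the siControl, where it is high, so no test is read from it. In siMapk14 MEST had 10, 7 and 12 counts against 16, 29 and 19 in its siControl, 0.825, 0.716 and 0.711 CPM against 0.402, 0.730 and 0.478 CPM, with overlapping groups (log2 fold change 0.51 ± 0.48, edgeR adjusted p = 0.390, and -0.26 with total counts). MESTIT1 and the end of COPG2 overlap MEST.

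CDKN1C (chr11:2883218-2885775) encodes p57, an inhibitor of cyclin-dependent kinases that is expressed from the maternal copy. It had 10, 29 and 13 counts in siMapk8+9 and 1, 3 and 4 counts in its siControl, or 1.43, 1.33 and 2.05 CPM against 0.0246, 0.0738 and 0.0986 CPM. All 3 knockdown libraries, with and without keratin transcripts, were above the siControl. The log2 fold change was 4.51 ± 0.60 (edgeR adjusted p = 0.00157), and the pooled rates differed by 22.6-fold (95% exact interval 10.6 to 55.0, counting error only). CDKN1C passed the filter on low counts through the knockdown group, where it is high, so it could hardly have been tested without differing. In siMapk14 it had 15, 4 and 13 counts, or 1.24, 0.409 and 0.770 CPM, against 9, 8 and 5 counts, or 0.226, 0.201 and 0.126 CPM, in its siControl. It missed the filter there; the pooled rates differed by 4.47-fold (95% exact interval 2.52 to 8.08, counting error only), and the groups did not overlap by TMM-scaled CPM. By CPM on total counts they did, with 0.276 in siMapk14 replicate 2 against 0.287 in siControl replicate 1. The difference between the 2 effects was -2.38 ± 0.87 (edgeR adjusted p = 0.0840).

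IGF2 (chr11:2129117-2149566), the fetal insulin-like growth factor, was at the edge of detection. It had 6, 8 and 8 counts in siMapk8+9 and 3, 6 and 1 counts in its siControl, or 0.855, 0.368 and 1.26 CPM against 0.0739, 0.148 and 0.0247 CPM. The groups did not overlap by CPM, while the raw counts did at 6. The log2 fold change was 3.15 ± 0.82 (edgeR adjusted p = 0.0173), with a pooled ratio of 7.64 (95% exact interval 3.47 to 18.1, counting error only); the call was lost without siControl replicate 1 (3.12, edgeR adjusted p = 0.0799) and without siControl replicate 3 (2.77, edgeR adjusted p = 0.0738). IGF2 too passed the filter through the group where it is high. In siMapk14 it had 0, 1 and 5 counts against 0, 1 and 1. INS-IGF2 and IGF2-AS overlap the span of the gene. Shared exons were not checked, so some of their reads may not be told apart.

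The last 3 members were close to absent. NNAT (chr20:37521250-37523690), a small membrane protein related to regulators of the calcium pump SERCA and lying inside BLCAP, had 0, 0 and 3 counts in siMapk14 against 3, 2 and 4 in its siControl, and 0, 0 and 0 in siMapk8+9 against 5, 4 and 8 in its siControl. The siControl level of 0.140 CPM in the siMapk8+9 experiment is close to the 0.0855 CPM that 3 counts over the 3 siMapk8+9 libraries would give, so a loss could barely be seen at this depth. PEG3 (chr19:56810082-56840726), a zinc-finger protein that overlaps ZIM2, had 0, 0 and 0 counts in siMapk14 against 1, 2 and 2, and 0, 1 and 9 in siMapk8+9 against 1, 0 and 1. Of these, 9 counts fell in siMapk8+9 replicate 3, not in the library with keratin transcripts. DLK1 (chr14:100726892-100738224), a Notch-like surface protein of progenitor cells, was listed in the siMapk8+9 table alone, with 1, 0 and 0 counts against 0, 0 and 0. None of the 3 passed the filter on low counts.

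Genes around PEG10 on 7q21 moved in both directions, as genes did in general. Of 14 neighbours within the list, 9 passed the filter. In siMapk14 4 went up and 4 down past the threshold, and in siMapk8+9 5 went up and 3 down (with the length trend removed, 3 and 3, and 4 and 3). Over all genes, 29.4% were called higher and 30.5% lower in siMapk14, and 26.8% and 26.1% in siMapk8+9. CASD1, a sialic acid acetyltransferase gene that overlaps SGCE, was named after its values were seen: it had 16.3, 11.5 and 12.7 CPM in siMapk14 against 22.1, 21.4 and 20.7 CPM in its siControl, and 7.98, 14.1 and 8.85 CPM in siMapk8+9 against 38.3, 39.4 and 38.2 CPM in its siControl. It fell in both knockdowns without overlap of the libraries, by 0.63 ± 0.14 (edgeR adjusted p = 0.00404) and by 1.85 ± 0.22 (edgeR adjusted p = 0.00129). PPP1R9A, which encodes the actin-binding protein neurabin, had 5.94, 3.58 and 4.50 CPM in siMapk14 against 5.60, 5.74 and 5.36 CPM (log2 fold change -0.22 ± 0.22, edgeR adjusted p = 0.416). In siMapk8+9 it fell, with 2.28, 3.36 and 3.95 CPM against 16.5, 14.9 and 14.3 CPM in its siControl (log2 fold change -2.23 ± 0.22, edgeR adjusted p = 0.000750). Like PEG10, CASD1 and PPP1R9A stood higher in the siControl for siMapk8+9 than in that for siMapk14, whereas SGCE, between CASD1 and PEG10, stood lower.

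Other neighbours on 7q21 moved the same way in both knockdowns or in opposite ways. TFPI2, a protease inhibitor that is imprinted in placenta, rose by 2.15 ± 0.42 on the log2 scale in siMapk14 (edgeR adjusted p = 0.00208) and by 2.28 ± 0.25 in siMapk8+9 (edgeR adjusted p = 0.00100). COL1A2, a chain of type I collagen, fell to 2545 ± 228 CPM in siMapk14, against 10195 ± 861 CPM in its siControl, and to 3866 ± 1285 CPM in siMapk8+9, against 11391 ± 110 CPM in its siControl (SD, n = 3 each). Its log2 fold changes were -1.97 ± 0.11 and -1.54 ± 0.29 (edgeR adjusted p = 4.34e-06 and 0.00504). BET1, a vesicle-transport SNARE, and GNG11, a G-protein subunit, rose by 0.64 and 0.53 in siMapk14 (edgeR adjusted p = 0.000214 and 0.00109), though not by total counts (-0.13 and -0.25), and by 1.302 and 1.22 in siMapk8+9 (edgeR adjusted p = 0.00108 and 0.000983). Corrected for length, BET1 lost its call in siMapk14 (0.12, edgeR adjusted p = 0.278). The effects on BET1 and GNG11 differed by -0.67 and -0.69 (edgeR adjusted p = 0.0223 and 0.0145); the BET1 call was lost by total counts (-0.72, edgeR adjusted p = 0.0559) and without any 1 siControl library for siMapk8+9 (edgeR adjusted p = 0.0522 to 0.0638), or replicate 2 or 3 of that for siMapk14 (0.0582 and 0.0610), and the GNG11 call without replicate 3 of the siControl for siMapk14 (edgeR adjusted p = 0.0501).

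PON2, a lactonase, and PDK4, a kinase that holds back pyruvate dehydrogenase, were named after their values were seen. PON2 had 149.4, 173.1 and 156.0 CPM in siMapk14 against 203.8, 197.8 and 202.0 CPM in its siControl, and 222.3, 229.3 and 231.6 CPM in siMapk8+9 against 168.7, 164.6 and 163.8 CPM in its siControl. It fell by 0.31 ± 0.07 in siMapk14 (edgeR adjusted p = 0.00381) and rose by 0.48 ± 0.09 in siMapk8+9 (edgeR adjusted p = 0.00583). The rise turned to -0.20 by total counts and -0.09 corrected for length (edgeR adjusted p = 0.461 and 0.503), while the difference of -0.79 ± 0.11 (edgeR adjusted p = 0.000733) passed in each of these. PDK4 was at -0.36 ± 0.12 in siMapk14 (edgeR adjusted p = 0.0325) and 0.51 ± 0.17 in siMapk8+9 (edgeR adjusted p = 0.0414), a difference of -0.87 ± 0.22 (edgeR adjusted p = 0.0204). By total counts the siMapk8+9 value turned to -0.17 (edgeR adjusted p = 0.617), corrected for length the siMapk14 call was lost (-0.17, edgeR adjusted p = 0.311), and leaving out any 1 siControl library lost the call of its experiment (edgeR adjusted p = 0.0545 to 0.112 in siMapk14 and 0.09996 to 0.132 in siMapk8+9). So did leaving out siMapk14 replicate 1 or 3 (edgeR adjusted p = 0.0901 and 0.0783) and siMapk8+9 replicate 3 (edgeR adjusted p = 0.0988). The call on the difference was lost by total counts (-0.97, edgeR adjusted p = 0.0813) and without siMapk14 replicate 1, its siControl replicate 1, or replicate 2 or 3 of the siControl for siMapk8+9 (edgeR adjusted p = 0.0511 to 0.0565).

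**Figure D4:**
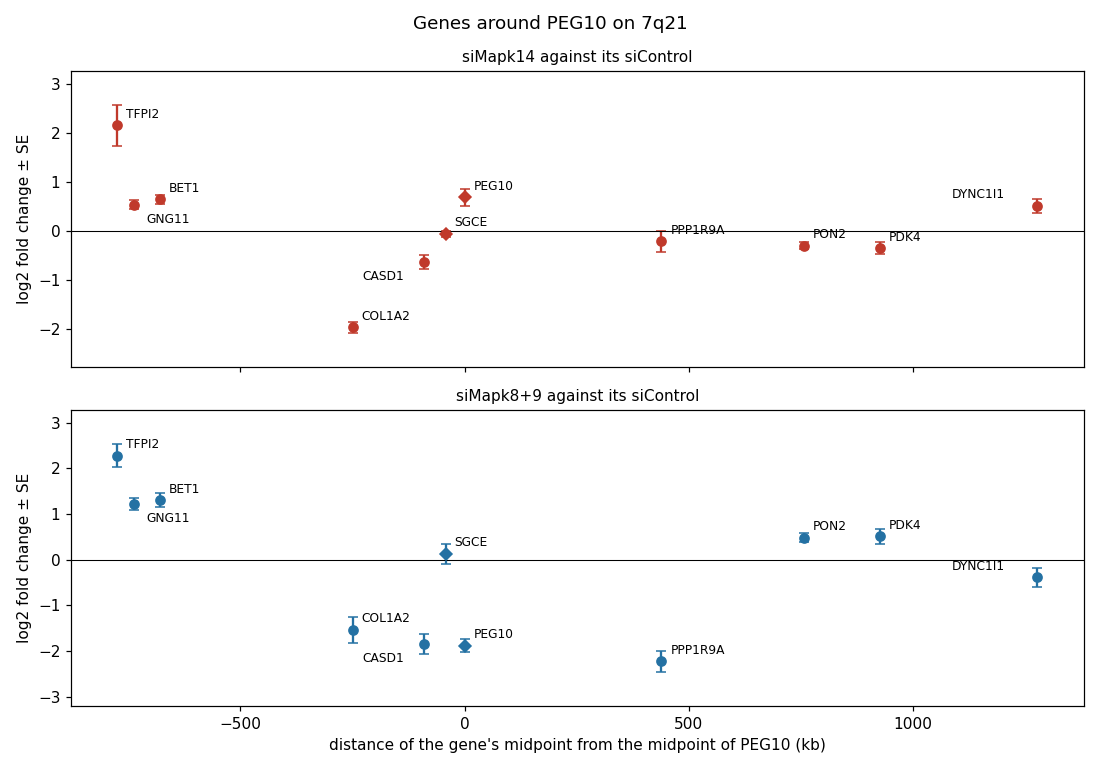
Log2 fold change ± SE (y axis) of PEG10, SGCE (diamonds) and the tested neighbours (circles) by the distance of each gene's midpoint from that of PEG10 in kb (x axis), siMapk14 above and siMapk8+9 below, each against its siControl. In siMapk8+9 PEG10, CASD1, COL1A2 and PPP1R9A lie below -1.5 while SGCE, beside PEG10, is at 0.13; in siMapk14 PEG10 is at 0.68 (-0.09 by total counts).

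A list of 45 other imprinted genes, 30 of them in the tables, gave no common direction. In siMapk14, 9 of the 26 tested rose and 5 fell, with a median log2 fold change of -0.02, the same as over all genes; the background was 29.4% higher and 30.5% lower. In siMapk8+9, 7 of 26 rose and 8 fell, with a median of -0.38 against -0.05 over all genes. The background there was 26.8% higher and 26.1% lower. With the length trend removed the counts were 4 higher and 4 lower in siMapk14, and 4 higher and 8 lower in siMapk8+9. SNRPN, a splicing factor gene of the Prader-Willi region, had 62.0, 57.0 and 53.9 CPM in siMapk14 against 29.1, 28.7 and 28.3 CPM, and 58.5, 46.8 and 78.7 CPM in siMapk8+9 against 24.3, 22.9 and 21.9 CPM. It rose by 1.03 ± 0.08 and 1.43 ± 0.20 (edgeR adjusted p = 1.15e-05 and 0.00194), and the length-corrected rises were 0.58 and 0.83 (edgeR adjusted p = 0.000340 and 0.00664). GNAS, the stimulatory G-protein alpha subunit, rose by 0.65 ± 0.07 in siMapk14 (edgeR adjusted p = 7.20e-05; -0.13 by total counts) and by 1.39 ± 0.19 in siMapk8+9 (edgeR adjusted p = 0.00188). PHLDA2, which restrains placental growth, rose by 1.07 and 1.79, and neither call held with the length trend removed (0.27 and 0.81, edgeR adjusted p = 0.295 and 0.114). ZDBF2, a paternally expressed gene with a long transcript, fell, with log2 fold changes of -1.04 and -0.97; with the length trend removed it was -0.37 in siMapk14 (edgeR adjusted p = 0.0229) and -0.02 in siMapk8+9 (edgeR adjusted p = 0.947).

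DIRAS3, a maternally imprinted small GTPase known as a growth inhibitor in ovary, was named after its values were seen. It had 4.45, 5.01 and 7.40 CPM in siMapk14, against 3.34, 3.27 and 3.48 CPM in its siControl, and 4.70, 2.57 and 6.64 CPM in siMapk8+9, against 22.3, 21.6 and 21.8 CPM in its siControl. The siControl for siMapk8+9 is again the high group, and the other 3 groups lie between 2.57 and 7.40 CPM. The log2 fold changes were 0.78 ± 0.24 (edgeR adjusted p = 0.0201) and -2.29 ± 0.33 (edgeR adjusted p = 0.00204), and the difference between them was 3.08 ± 0.40 (edgeR adjusted p = 0.000458). By total counts the siMapk14 value was 0.037 (edgeR adjusted p = 0.919). The siMapk14 rise was also lost with the length trend removed (0.28, edgeR adjusted p = 0.393) and without siControl replicate 1, 2 or 3 (0.77, 0.76 and 0.80; edgeR adjusted p = 0.0771, 0.0821 and 0.0685).

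**Figure D5:**
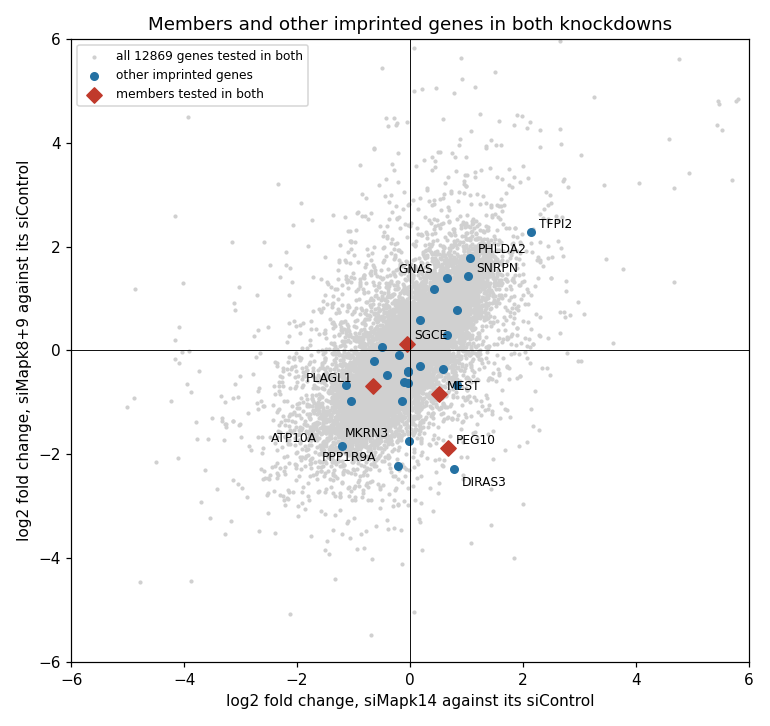
Log2 fold change in siMapk14 (x axis) and in siMapk8+9 (y axis), each against its own siControl, for 12869 genes tested in both (grey), 26 other imprinted genes (blue circles) and 4 members (red diamonds); 32 genes lie outside the axes. PEG10 and DIRAS3 lie at the lower right, with log2 fold changes of 0.68 and 0.78 in siMapk14 (-0.09 and 0.037 by total counts) and -1.88 and -2.29 in siMapk8+9.

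Over the 12 libraries, each set against the mean of its own siControl set, the genes most like PEG10 among 9146 with a mean of at least 10 CPM were CIZ1 (Pearson r = 0.983), RNF40 (0.982), HSPA4L (0.979), CYLD (0.977) and DNAJB4 (0.977). CIZ1 is a replication factor, RNF40 a histone H2B ubiquitin ligase, CYLD a deubiquitinase, and HSPA4L and DNAJB4 are chaperones. HSPA4L averaged 20.2 ± 6.15 CPM in siMapk14 and 13.9 ± 1.11 CPM in its siControl, and 17.2 ± 4.42 CPM in siMapk8+9 and 40.4 ± 1.31 CPM in its siControl (SD, n = 3 each). It too was high in the siControl for siMapk8+9. By Spearman's rho HSPA4L alone of the 5 stayed among the first 5. SGCE had r = -0.29 and PLAGL1 r = 0.30. These are descriptions over libraries whose depth and mitochondrial share differ between knockdown and siControl groups, and also within the knockdown groups.

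PEG10 is 1 of several genes taken from the gag gene of retrotransposons, and its relatives were mixed. Of 24 such genes, siMapk14 raised 7 and lowered 2 of 17 tested, and siMapk8+9 raised 6 and lowered 5 of 16 (corrected for length, 4 and 3, and 4 and 5). The background over all genes was 29.4% higher and 30.5% lower in siMapk14, and 26.8% and 26.1% in siMapk8+9. Without siControl replicate 1, 2 or 3, the siMapk8+9 calls among the relatives numbered 6, 7 and 7 in place of 11. ARC, which forms capsid-like particles in neurons, had 7.51, 4.50 and 3.38 CPM in siMapk14 against 1.96, 2.39 and 2.47 CPM, and 3.56, 4.37 and 5.06 CPM in siMapk8+9 against 1.08, 1.23 and 1.16 CPM. It rose by 1.19 ± 0.33 (edgeR adjusted p = 0.0116; 1.10 and 0.0559 without siControl replicate 1) and 1.92 ± 0.29 (edgeR adjusted p = 0.00222). MOAP1, a pro-apoptotic BAX partner, rose by 0.76 ± 0.10 in siMapk14 (edgeR adjusted p = 0.000153; -0.0047 by total counts) and by 1.32 ± 0.15 in siMapk8+9 (edgeR adjusted p = 0.000987). RTL10 fell, with log2 fold changes of -1.68 ± 0.17 and -1.73 ± 0.28 (edgeR adjusted p = 4.16e-05 and 0.00304). RTL8A rose by 1.00 and 1.15, but it has near-identical copies in RTL8B and RTL8C, and neither call held with the length trend removed (0.16 and 0.01, edgeR adjusted p = 0.143 and 0.979).

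Genes that control the amount of PEG10 protein are background to its level, and protein was not measured. UBQLN2 and the ligase UBE3A help to degrade it, and the deubiquitinase USP9X stabilises it. Of 5 genes listed, these 3 with UBQLN1 and UBQLN4, siMapk14 raised 2 and lowered 2, and siMapk8+9 raised 1 and lowered 2. By comparison, 59.9% of all genes were called in siMapk14 and 52.9% in siMapk8+9. On this list the siMapk14 calls numbered 2 without siMapk14 replicate 1 or siControl replicate 1 or 2. The siMapk8+9 calls on it numbered 1 without any of the siControl replicates and 5 without siMapk8+9 replicate 2. USP9X fell, with log2 fold changes of -0.79 ± 0.07 and -0.84 ± 0.11 (edgeR adjusted p = 1.79e-05 and 0.00161). UBE3A fell, with log2 fold changes of -0.41 ± 0.07 and -0.48 ± 0.12 (edgeR adjusted p = 0.000968 and 0.0126). Both have long transcripts, and after the length correction none of these 4 calls held (-0.06 and 0.23 for USP9X, 0.08 and 0.20 for UBE3A; edgeR adjusted p = 0.451, 0.0584, 0.298 and 0.0770). Without siControl replicate 1, 2 or 3 UBE3A also missed the threshold in siMapk8+9 (-0.47, -0.49 and -0.50; edgeR adjusted p = 0.0595, 0.0538 and 0.0513). For the difference between the effects 0 of 5 passed in edgeR's quasi-likelihood test, with 0 at an unadjusted p under 0.05 and 0 in DESeq2 and limma-voom.

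SGCE belongs to the dystrophin-glycoprotein complex, which ties the cytoskeleton to the matrix. Among 11 tested of 14 partners, siMapk14 raised 0 and lowered 4, and siMapk8+9 raised 1 and lowered 5 (medians -0.38 and -0.64; corrected for length -0.05 and -0.19, with 1 higher and 4 lower, and 1 higher and 3 lower). Before that correction, 29.4% of all genes were called higher and 30.5% lower in siMapk14, and 26.8% and 26.1% in siMapk8+9. DAG1, the dystroglycan that binds laminin, had 58.6, 52.9 and 73.5 CPM in siMapk14 against 171.7, 162.1 and 155.8 CPM, and 30.8, 85.3 and 48.4 CPM in siMapk8+9 against 167.4, 169.1 and 163.2 CPM. It fell, with log2 fold changes of -1.37 ± 0.11 and -1.57 ± 0.34 (edgeR adjusted p = 1.58e-05 and 0.00842). UTRN, the dystrophin relative utrophin, fell, with log2 fold changes of -1.32 ± 0.20 and -1.502 ± 0.11 (edgeR adjusted p = 0.000424 and 0.000334). SNTB2, a syntrophin, fell, with log2 fold changes of -1.402 and -1.01, but in siMapk8+9 only with transcript length left in (-0.05 with the trend removed, edgeR adjusted p = 0.715).

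IGF2 acts through IGF1R and INSR, is cleared by IGF2R and is bound by IGFBP proteins. Of 15 tested genes of this axis, 1 rose and 10 fell in siMapk14 (median -0.80), and 2 rose and 5 fell in siMapk8+9 (median -0.53). The shares over all genes were 29.4% higher and 30.5% lower in siMapk14, and 26.8% and 26.1% in siMapk8+9. With the length trend removed the axis counts were 1 and 8, and 3 and 0. The length-corrected shares over all genes were 25.1% higher and 21.6% lower, and 22.5% and 16%. Without siMapk8+9 replicate 2 the axis counts were 2 and 11 in siMapk8+9, where 71.1% of all genes were then called. IGFBP5 had 173.2, 156.5 and 278.7 CPM in siMapk14, against 1313, 1305 and 1435 CPM in its siControl, and fell by 2.70 ± 0.20 (edgeR adjusted p = 9.86e-06). In siMapk8+9 it had 139.3, 2006 and 471.9 CPM against 1806, 1696 and 1830 CPM (log2 fold change -1.01 ± 0.83, edgeR adjusted p = 0.336), and it fell by 2.52 without replicate 2 (edgeR adjusted p = 0.00142). IGFBP3 also turned on that library: 404.6, 3320 and 832.7 CPM in siMapk8+9 against 1207, 1204 and 1260 CPM (0.33 ± 0.69, edgeR adjusted p = 0.707; -0.96, adjusted p = 0.0111, without it). IGFBP4 fell in siMapk14 by 1.16 ± 0.08 (edgeR adjusted p = 8.59e-06) and was at -0.02 ± 0.11 in siMapk8+9 (edgeR adjusted p = 0.871), a difference of -1.15 ± 0.14 (edgeR adjusted p = 0.000248). IGF2R fell, with log2 fold changes of -1.01 ± 0.10 and -1.504 ± 0.26 (edgeR adjusted p = 3.27e-05 and 0.00402), and once corrected for length it was at -0.25 (edgeR adjusted p = 0.0147) and -0.41 (edgeR adjusted p = 0.144).

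CDKN1C has 2 close relatives among the CDK inhibitors, CDKN1A (p21) and CDKN1B (p27). Of 4 tested genes other than CDKN1C, siMapk14 raised 1 and lowered 1, and siMapk8+9 raised 3 and lowered 1, where 59.9% and 52.9% of all genes were called. Corrected for length, 1 was higher and 2 lower in siMapk14, and 2 were higher and 1 lower in siMapk8+9 (medians -0.37 and 0.45, in place of 0.035 and 0.95). Before that correction, 1 was called in siMapk14 without siControl replicate 1, and 2 in siMapk8+9 without siControl replicate 2 or 3. CDKN1A had 109.1, 94.1 and 100.5 CPM in siMapk14 against 47.6, 53.6 and 58.6 CPM, and 104.4, 156.5 and 75.6 CPM in siMapk8+9 against 13.9, 13.7 and 14.2 CPM. It rose by 0.96 ± 0.09 (edgeR adjusted p = 3.79e-05) and by 3.03 ± 0.27 (edgeR adjusted p = 0.000514), and the difference was -2.09 ± 0.28 (edgeR adjusted p = 0.000544). CDKN1B rose in siMapk8+9 by 1.06 ± 0.17 (edgeR adjusted p = 0.00277) and was at 0.18 ± 0.13 in siMapk14 (edgeR adjusted p = 0.254).

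Genes that keep imprints code for DNA methylation enzymes and for zinc-finger or chromatin factors. In each knockdown 11 of 14 tested fell and 0 rose, with medians of -0.73 in siMapk14 and -0.78 in siMapk8+9, where 30.5% and 26.1% of all genes were called lower, and in siMapk8+9 6, 7 and 7 fell without siControl replicate 1, 2 and 3. Many have long transcripts, and with the length trend removed 6 and 4 fell, with medians of -0.37 and -0.36, beside 21.6% and 16% of all genes. UHRF1, which brings DNMT1 to replicating DNA, had 17.9, 17.6 and 19.1 CPM in siMapk14 against 73.5, 67.3 and 62.7 CPM, and 28.4, 36.2 and 24.8 CPM in siMapk8+9 against 126.4, 131.7 and 129.0 CPM. It fell, with log2 fold changes of -1.86 ± 0.09 and -2.08 ± 0.15 (edgeR adjusted p = 3.19e-06 and 0.000357), or -1.63 and -1.76 corrected for length. DNMT1, the maintenance methyltransferase, fell, with log2 fold changes of -0.86 ± 0.11 and -1.51 ± 0.11 (edgeR adjusted p = 0.000142 and 0.000314). DNA methylation was not measured.

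NNAT resembles the small peptides that regulate SERCA calcium pumps, and of 8 pump and regulator genes 2 passed the filter. ATP2A2, the widespread pump SERCA2, fell by 0.57 ± 0.08 in siMapk14 (edgeR adjusted p = 0.000307), a call lost with the length trend removed (-0.04, edgeR adjusted p = 0.618). In siMapk8+9 it had 77.7, 193.7 and 79.4 CPM against 220.9, 221.5 and 223.5 CPM. There 0 of 2 passed edgeR's quasi-likelihood test (ATP2A2 -0.90 ± 0.36, adjusted p = 0.0711), 1 had an unadjusted p under 0.05 and 1 passed in DESeq2 and in limma-voom; without replicate 2, ATP2A2 fell by 1.47 (edgeR adjusted p = 3.63e-07).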

How the data were processed

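The authors deposited 2 tables, 1 for each experiment, with expected counts and FPKM per gene and library. Per the submitters' processing notes, Bowtie2 2.3.4.3, RSEM 1.3.1 and DESeq2 1.4.5 were used with GRCh38.p14; strand is not given in the sources used here. Expected counts were rounded to whole numbers. Genes were filtered with filterByExpr (10 counts, 15 in total), scaled by TMM and tested with edgeR 4.0.16 (quasi-likelihood, robust) within each experiment, and in 1 joint fit for the difference between the effects; Benjamini-Hochberg adjustment ran over all genes, with a threshold of 0.05. DESeq2 1.42.0 and limma 3.58.1 (voom) in R 4.3.3 were alternatives. Levels are CPM scaled over all 12 libraries. Effective length was taken from counts and the authors' deposited FPKM for 14034 genes (count of at least 10, FPKM of at least 0.2). The trend on length was removed with a lowess of span 0.3 for each library. It was fitted to log2(CPM + 0.5) minus the gene's mean, on log2 effective length, and entered the edgeR fit as an offset. A pseudocount of 0.5 CPM was used on the log2 scale for the comparison of siControl sets and for likeness. Floors are 3 counts. The tests were run on simulated data first. There were 24 other per-library columns, which were not used.

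The members and gene lists were chosen with earlier results of these data known. The text names the members, up to 4 called genes per list and experiment by smallest adjusted p, and the 5 genes most like PEG10; any other gene is said to be chosen after its values were seen. The alternatives were other scalings, filters, tools, the length trend, a replicate block and leaving out each library.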

Additional observations from a re-analysis of the deposited data

Results flagged for a closer look

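For 6 of 27 other imprinted genes tested, beside 15.9% of all genes, the siMapk14 effect differed from the siMapk8+9 effect, each taken against its own siControl. For PEG10 the TMM-scaled libraries moved in opposite directions (a difference of 2.56 on the log2 scale), although by total counts the siMapk14 value was -0.09; this difference was not tested because it chose the gene. DIRAS3 differed by 3.08 (edgeR adjusted p = 0.000458) and PPP1R9A by 2.00 (edgeR adjusted p = 0.00135). MKRN3 differed by 1.70 (edgeR adjusted p = 0.0103) and ZNF331 by 0.80 (edgeR adjusted p = 0.0182); both were named after their values were seen, and neither passed with total counts (1.54 and 0.70, edgeR adjusted p = 0.0986 and 0.286). GNAS differed by -0.75 (edgeR adjusted p = 0.0257), a call lost on leaving out any 1 siControl library (edgeR adjusted p = 0.0602 to 0.0717) and siMapk14 replicate 1 or 3 (edgeR adjusted p = 0.0529 and 0.0610). HM13, also named after its values were seen, differed by -0.42 (edgeR adjusted p = 0.0340) and was lost with total counts and with the length trend removed (-0.50 and -0.29, edgeR adjusted p = 0.173 and 0.0659).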

How the results depend on the processing

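Of 883 values of single genes in siMapk14, 802 kept direction and side of the threshold, 56 lost the call, 11 gained it and 14 turned round; of 915 in siMapk8+9 these were 833, 53, 16 and 13, and of 1184 for the difference 1072, 95, 17 and 0. By total counts in siMapk14 the log2 fold changes that turned round were PEG10 -0.094, HM13 -0.60, GNAS -0.13, BLCAP -0.13, BET1 -0.13, GNG11 -0.25, MOAP1 -0.0047, UBQLN2 -0.53, UBQLN1 -0.59, IGFBP6 -0.56 and CDKN1B -0.59; in siMapk8+9 they were HM13 -0.10, PON2 -0.20, PDK4 -0.17, UBQLN2 -0.48, UBQLN1 -0.33 and IGF2BP2 -0.11. With the length trend removed they were HM13 -0.28, UBE3A 0.081, IGFBP6 -0.58 and IGF1R 0.086 in siMapk14, and HM13 -0.0022, PON2 -0.093, USP9X 0.23, UBE3A 0.20, CDKN2D -0.0098 and TET3 0.12 in siMapk8+9. IGFBP3 in siMapk8+9 ranged from -0.96 (without replicate 2) to 0.77 over leaving out each library. PEG10 was -2.59 by total counts in siMapk8+9, and 1.21 and -1.13 with the length trend removed. Members other than PEG10 called in siMapk14 numbered 2 with total counts, no filter, DESeq2, the length trend removed, no mitochondrial genes or a joint fit; in siMapk8+9 there was 1 with a mean of at least 1 CPM or the length trend removed, and for the difference 1 in DESeq2. Other imprinted genes called in siMapk14 were 8 with the length trend removed. For the difference, total counts gave 1030 genes and 3 other imprinted genes, against 2169 and 6. PEG10 by total counts averaged 83.8 CPM in siMapk14, 40.6 CPM in siMapk8+9, 89.6 CPM in the siControl for siMapk14 and 245.6 CPM in the siControl for siMapk8+9, and its deposited FPKM were 13.3, 6.47, 14.3 and 39.3 in these groups.

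Leaving out each library gave 6410 to 8612 genes in siMapk14, 4509 to 9554 in siMapk8+9 (9554 without siMapk8+9 replicate 2) and 1266 to 5205 for the difference (5205 without the same library). Members other than PEG10 numbered 1 to 2, 1 to 4 and 0 to 1, and other imprinted genes 10 to 18, 11 to 18 and 3 to 13. PEG10 ranged over 0.42 to 0.79, -2.02 to -1.76 and 2.31 to 2.69. Same-numbered libraries of a knockdown and its siControl correlated by 0.012 to 0.0296 in siMapk14 and -0.0257 to -0.0074 in siMapk8+9. Each correlated best with its own number in 3 of 3 and 0 of 3 pairs. These small values do not settle whether same-numbered libraries are paired. With the replicate block the difference gave 1179 genes and 2 other imprinted genes, PEG10 was 0.66, -1.89 and 2.54, and IGF2 lost its call in siMapk8+9 (edgeR adjusted p = 0.0706). The causes of these changes were not tested. Depth limits NNAT, PEG3, DLK1, IGF2 and CDKN1C, since 1 count is worth 0.0246 to 0.158 CPM.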
